A study of Sus scrofa with 24 samples.

Results

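The 100 most abundant circRNAs of the Meishan pig spleen were taken from a table of back-splice read counts for 3000 circRNAs in 24 libraries. The table holds only part of the circRNAs that the study identified, and how they were selected is not stated. Shares and ranks below are therefore those within the table. The 100 were chosen by the measured values themselves. They had the highest sums of raw counts over the 24 libraries after circRNA_24032 and circRNA_21182 had been left out. Their abundance is thus a description and was not tested. The spleens came from healthy Meishan pigs under the same feeding, with no treatment named in the labels, aged 1, 7, 14 or 21 days (1d to 21d), 28 or 35 days (28d, 35d) and 120 or 180 days (120d, 180d), with 3 pigs a stage and 1 library a pig, and every library was of whole spleen, so that fewer cells of a type and less RNA per cell cannot be told apart. The library totals in the table ran from 16273 to 87867 reads, lowest at 1d and highest at 120d. The raw sums of the 100 ran from 10752 down to 1415, with a median of 2009.5 against 183 over all 3000. The last inside the ranking were circRNA_35397 of SDAD1 with 1436 reads and circRNA_23289 of METTL9 with 1415, and the next outside were circRNA_18123 of RNF145 and circRNA_27259 of SLC30A7 with 1414 each. Because the sum is over raw counts, the deeply counted 120d libraries weigh most in the choice. Ranking by the mean share of reads over the 8 stages, which weighs the stages equally, kept 95 of the 100.

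A circRNA forms when the 3′ end of an exon is spliced back to the 5′ end of the same or an upstream exon, which leaves a closed RNA ring without a cap or a poly(A) tail. Such rings resist exonucleases and can outlast the linear mRNA of the same host gene. Reads that cross the back-splice junction are taken as reads of the ring, though copies of the sequence elsewhere can make their origin uncertain. Since each ring has 1 such junction, counts can be set side by side between circRNAs without a correction for length. The spleen filters blood, holds large B cell and T cell zones, and still makes blood cells around birth, so its cell makeup changes as a piglet grows.

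The sequences of the most abundant circRNAs are shown first, since the junction is what the counts measure. They were read from Sscrofa11.1, the build of the table, with exons as RefSeq annotates them. Among the 12 with the highest sums, 4 were no longer than 300 bases and free of untranslated mRNA, and these rings are given whole, 5′ to 3′ from the acceptor exon. The 15 bases at either end, which the back-splice joins, are in capitals.
LOC110255584 (chr10:42063516-42079536, plus strand; exons 3 to 4 of a non-coding transcript): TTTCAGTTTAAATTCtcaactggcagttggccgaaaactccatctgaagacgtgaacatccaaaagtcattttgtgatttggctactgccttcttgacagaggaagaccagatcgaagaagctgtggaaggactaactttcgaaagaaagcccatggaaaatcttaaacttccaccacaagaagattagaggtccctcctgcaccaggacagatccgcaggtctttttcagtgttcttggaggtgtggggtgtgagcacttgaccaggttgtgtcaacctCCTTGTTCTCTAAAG
TLK1 (chr15:77234646-77283482, minus strand; exons 2 to 4): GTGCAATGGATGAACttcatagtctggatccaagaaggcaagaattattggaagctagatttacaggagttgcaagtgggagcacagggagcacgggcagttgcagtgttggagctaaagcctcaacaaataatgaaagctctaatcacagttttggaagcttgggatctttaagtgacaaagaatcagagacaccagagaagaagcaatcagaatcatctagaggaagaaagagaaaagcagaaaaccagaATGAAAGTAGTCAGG
PRKAR1A (chr12:11669306-11671052, minus strand; exons 5 to 7): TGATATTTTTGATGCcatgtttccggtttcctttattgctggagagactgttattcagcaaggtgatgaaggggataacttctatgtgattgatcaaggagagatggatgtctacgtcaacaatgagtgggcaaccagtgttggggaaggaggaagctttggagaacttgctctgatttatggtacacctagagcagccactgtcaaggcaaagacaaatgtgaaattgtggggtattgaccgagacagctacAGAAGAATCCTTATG
PAN3 (chr11:5503065-5507316, plus strand; exons 2 to 4): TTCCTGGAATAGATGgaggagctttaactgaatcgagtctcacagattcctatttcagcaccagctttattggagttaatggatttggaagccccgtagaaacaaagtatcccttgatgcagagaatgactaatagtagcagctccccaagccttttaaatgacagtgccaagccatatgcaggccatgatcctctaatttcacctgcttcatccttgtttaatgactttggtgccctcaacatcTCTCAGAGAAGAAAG

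For members on which the later comparisons turn, the 30 bases across the junction are given, with the last 15 bases of the donor exon in lower case and the opening 15 of the acceptor exon in capitals. Identical capitals mark rings that share an acceptor.
SLTM, exons 4 to 6 (chr1:113097707-113102025, plus strand): tttctaacagcccaaGTAAAAAACAGGAAG
PHF21A, exons 3 to 7 (chr2:16373975-16389509, plus strand): ttgagtgagaaacagGGAGCAAGAGAGCTG
PICALM, exons 2 to 5 (chr9:19897760-19913189, minus strand): cttcttgattttaatACTTAATTCAGTGCA
PICALM, exons 2 to 4 (chr9:19905675-19913189, minus strand): aaaagtgaaaagaggACTTAATTCAGTGCA
PICALM, exons 2 to 6 (chr9:19892116-19913189, minus strand): ttattaacctgttggACTTAATTCAGTGCA
TLK1, exons 2 to 4 (chr15:77234646-77283482, minus strand): atgaaagtagtcaggGTGCAATGGATGAAC
circRNA_16050, TLK1 acceptor and a donor at no annotated exon (chr15:77249916-77283482, minus strand): gtaggttcccttgagGTGCAATGGATGAAC
PRPSAP2, exons 2 to 7 (chr12:60366858-60376920, minus strand): tatattcaggaagagGAGGAATTTTGTTGT
PRPSAP2, exons 2 to 4 (chr12:60375325-60376920, minus strand): aggagcccgacagagGAGGAATTTTGTTGT
USP3, exons 2 to 3 (chr1:108482616-108486823, minus strand): ctacagtacatattgTGTGCCGGTCCAACA
CCT3, exons 5 to 8 (chr4:93738637-93747422, plus strand): aaaggagaaagccagATTCAAGTACAGCAT
AP2A1, exons 2 to 4 (chr6:54801799-54802488, plus strand): catcttggtggccggGTAAGAGCAAGGAGG
circRNA_30386, between 2 genes of a repeated cluster (chr6:56457307-56554190, plus strand): tgtcctggtcctcagATACCAACCAGACCA
The 3 PICALM rings share the acceptor and differ in the donor exon, and with it in the exons they hold. The same is true of both PRPSAP2 rings. circRNA_16050 carries the same 15 acceptor bases as the TLK1 ring of exons 2 to 4.

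The 100 circRNAs, 3.33% of those listed, held 253571 of 1021128 reads, or 24.8%. The 12 with the highest sums held 6.91% of all reads, and the next 100 by rank held 10.6%. The 1d libraries gave the 100 a mean share of 24.3 ± 0.66% (SD, n = 3 pigs), those of 7d 23.9 ± 1.23%, those of 14d 24.3 ± 0.90% and those of 21d 24.6 ± 0.12%. The means were 23.98 ± 0.059% for 28d and 24.4 ± 0.72% for 35d. The oldest stages had 25.7 ± 0.52% (120d) and 25.4 ± 0.23% (180d). The share thus stayed within 22.6% and 26.0% in single libraries. The ranking by raw sums favours circRNAs that are high in the deep 120d libraries, and with them a higher late share. Ranked with equal weight of the stages, the share was 24.7% at 1d, 25.4% at 120d and 25.02% at 180d. When the 100 were chosen for each library from the other 23, the stage means ran from 23.7% at 7d to 25.5% at 120d. The share of the 12 highest moved more, from 6.02 ± 0.24% at 1d to 7.55 ± 0.45% at 180d.

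**Figure D1:**
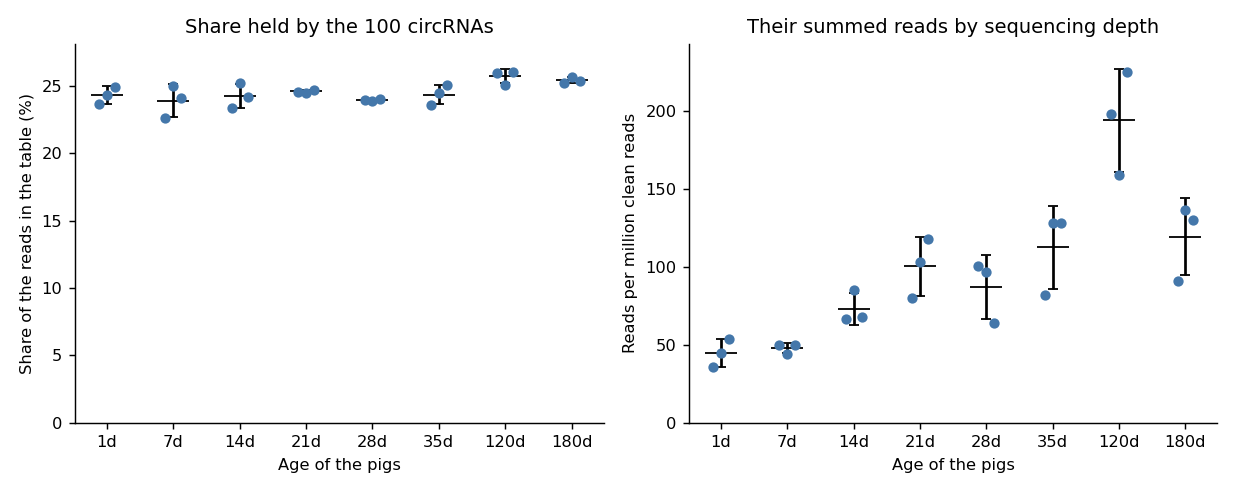
Left, the share of the reads in the table held by the 100 circRNAs (%), and right, their summed reads per 1000000 clean reads of the library, by age. Points are pigs, horizontal bars are the means of 3 pigs and vertical bars 1 SD. The share stays between 22.6% and 26.0%, while the reads per 1000000 clean reads run from a mean of 44.6 at 1d to 194.2 at 120d.

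Set against sequencing depth instead of the table, the same circRNAs varied by more. Per 1000000 clean reads they summed to 44.6 ± 8.88 reads in the 1d pigs and 48.2 ± 3.31 in those of 7d. The sums were 73.2 ± 10.3 (14d) and 100.4 ± 19.1 (21d), stood at 87.2 ± 20.4 (28d) and 112.7 ± 26.7 (35d), and were 194.2 ± 33.1 in the 120d pigs and 119.4 ± 24.8 in the 180d pigs. The rest of the table moved with them. With clean reads as the depth, the median log2 fold change over the table was 1.99 at 120d and 1.27 at 180d against 1d, and 2.22 and 1.43 for the 100. All changes below are relative to the other circRNAs of the table, in counts scaled with TMM factors (trimmed means of M values), where those table medians were 0.26 and 0.20. With DESeq2 size factors they were 0.11 and 0.13, and with table totals -0.015 and -0.049.

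The circular transcript of SLTM, a nuclear protein of the SAFB family that acts on transcription, held rank 1 at 7 of the 8 stages and rank 5 at 7d, the left-out pair aside. Its TMM-scaled counts in the 3 pigs were 185, 298 and 348 in the 1d pigs, 237, 246 and 327 in the 7d pigs, 438, 439 and 553 in the 120d pigs and 546, 630.3 and 541 in the 180d pigs. The 180d pigs lay above every 1d and 7d pig, and the fitted change from 1d to 180d was 2.06-fold (log2 fold change 1.04 ± 0.18 (SE), adjusted p = 2.66e-05). The ring of PHF21A, which reads histone H3 in a repressor complex and is spliced from exons 3 to 7 with the start codon, gave 151, 169.6 and 244 in the 1d pigs and 368, 367 and 368 in the 120d pigs without overlap (log2 fold change 0.96 ± 0.19 (SE), adjusted p = 0.000465). That change was under 2-fold, and its age trend was called with a slope of 0.15 ± 0.024 (SE; adjusted p = 3.01e-06) log2 per doubling of age. Next came circRNA_05253, from a lncRNA of unknown function that lies wholly inside the ZEB1 gene on the same strand but shares no exon base with it. Its counts were 205, 244 and 292 in the 1d pigs, 292, 379 and 299 in the 7d pigs and 192, 290.4 and 235 in the 180d pigs. The 180d pigs overlapped those of 1d but lay below those of 7d, where this ring held rank 1, and its log2 difference between 180d and 1d was -0.047 (95% interval -0.42 to 0.33).

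The ring of PICALM exons 2 to 5, from a gene for clathrin assembly at the plasma membrane, gave 195, 181 and 234 in the 1d pigs and 216, 206 and 244 in the 180d pigs and a log2 difference of 0.12 (95% interval -0.22 to 0.46). That of TLK1, a kinase of chromatin assembly, rose 2.32-fold from 119, 114 and 131 in the 1d pigs to 263, 304 and 277 in the 180d pigs (log2 fold change 1.21 ± 0.21 (SE), adjusted p = 3.38e-05). No 180d pig overlapped a 1d pig for TLK1, whereas the PICALM groups overlapped. PRKAR1A, the regulatory subunit of protein kinase A, stood at 143 ± 19.5 at 1d and 227 ± 21.3 at 180d. XPO4, a nuclear transport receptor, stood at 198 ± 21.7 and 185 ± 18.3, and UBE3A, a ubiquitin ligase, at 160.5 ± 27.6 and 205 ± 30.8. For PRKAR1A the groups were apart, with an adjusted p of 0.0268 but a change under 2-fold, while for XPO4 and UBE3A they overlapped.

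The ring of PAN3, a subunit of the deadenylase that shortens poly(A) tails, moved from rank 28 at 1d to rank 5 at 180d, from 83.6, 95.5 and 109.99 in the 1d pigs to 183, 244 and 274 in the 180d pigs. It rose 2.42-fold (log2 fold change 1.28 ± 0.22 (SE), adjusted p = 2.57e-05). CEP63, a centrosome protein, rose 2.05-fold at 120d (log2 fold change 1.04 ± 0.19 (SE), adjusted p = 0.000245), and GRIPAP1, a protein of recycling endosomes encoded on chromosome X, stood at 112 ± 20.7 and 221 ± 46.9. FANCL, the ubiquitin ligase of the Fanconi anaemia pathway, was the only one of these 12 whose age trend was called lower, and its counts were 201, 227 and 189.9 in the 1d pigs and 134, 114 and 139 in the 180d pigs. The 12 stayed within the 30 highest at every stage and 9 of them within the 20 highest.

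**Figure D2:**
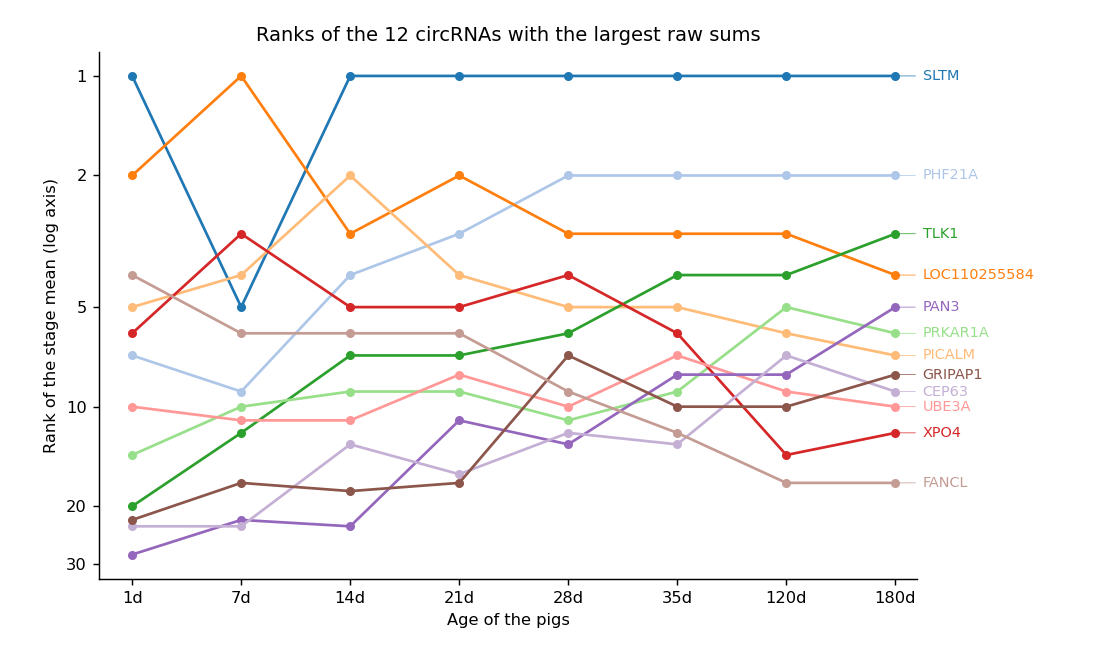
Rank of the stage mean among the circRNAs of the table, on a log axis with rank 1 at the top, for the 12 circRNAs with the largest raw sums, by age. Each line is 1 circRNA named by its host gene. SLTM is at rank 1 at every stage but 7d, TLK1 moves from rank 20 at 1d to rank 3 at 180d and PAN3 from 28 to 5, while FANCL moves from 4 to 17.

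As a description of values the choice itself used, the ranks were also taken by stage. Ranked within a stage, between 74 (7d) and 92 (21d) of the 100 were among the 100 highest, with 80 for 1d, 90 for 120d and 83 for 180d. In all, 51 were among the 100 highest at every stage, and 38 in every one of the 24 libraries. In single libraries between 70 and 88 were. The order within the 100 changed more. Over the 100 stage means, Spearman's rho was 0.88 between 1d and 7d, 0.86 between 120d and 180d and 0.30 between 1d and 180d, as a description over circRNAs that share libraries and depth.

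The 100 were also described by their place in the host gene. A host gene was found for 96, which fell on 87 genes, and 8 genes gave 2 or more. A host was assigned only where both ends matched annotated exon ends of 1 gene. That all 96 were chains of annotated exons follows largely from this rule. Over the table, 2844 of the 3000 circRNAs were such chains. Among the 96 chains, 45 (46.9%) began at exon 2, against 32.1% of the 2844 and 52.6% of the chains of the next 100. The chains held a median of 3 exons and 418 bases (table, 3 and 431), and the shortest had 193 and the longest 2496. By coding content, 76 (79.2%) lay inside the coding sequence (table, 80.6%) and 19 (19.8%) held the start codon (table, 17.2%). In addition, 1 was non-coding (table, 1.02%) and none held a stop codon (table, 0.28%). The introns upstream and downstream had medians of 9780.5 and 10637 bases, against 11335 and 9708 for the next 100 and 7503 and 6706 over the table, and complementary stretches of at least 100 bases between the 1000 intron bases on either side were found for 17 of 96 (17.7%), against 18.9% of the next 100 and 24.6% of the table. These shares were not tested.

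Of the 96, 23 were the only circRNA of the host in the table. Among the 73 whose host gave 2 or more, the member held a median of 71.9% of the host's reads, and 54 held at least 50%. The choice by high counts itself favours rings with a large part of their host's reads. These values are therefore a description and were not tested. PHF21A gave 98.5% of its host's reads in 1 ring, SLTM 85.3% and TLK1 67.0%. The TLK1 value leaves out circRNA_16050, which shares the TLK1 acceptor but has no host assigned, and would be lower with it. PRPSAP2 was split, with 24.7% and 24.5% in 2 of its 10 rings.

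The 4 members with no host gene were circRNA_30386, circRNA_26651, circRNA_16050 and circRNA_12132. circRNA_26651 overlaps CFAP126 on chromosome 4 with neither end at an annotated exon. circRNA_16050 has its acceptor at TLK1 exon 2 and its donor at no annotated exon, and circRNA_12132 has its donor at an exon of MORC3 and its acceptor at none. For 11 members a copy of at least 45 of the 50 bases beside the junction was found elsewhere in the genome, so their counts are uncertain. These were STK17A, CEP57, circRNA_30386, NDUFV2, ZFX, CFDP1, ZMYND11, circRNA_02700 of PIAS1, NUDT21, PHKB and SDAD1, and only circRNA_30386 had copies within 500000 bases.

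circRNA_30386 stood apart from all other members. It joins exons of LOC100626505 and LOC100626318, in a row of genes annotated as cationic amino acid transporter 3 or like it on chromosome 6, with 5 near copies beside its ends. Its TMM-scaled counts were 209, 268 and 225 in the 1d pigs, 0, 436 and 418 in the 7d pigs and 0, 312 and 58.6 in the 14d pigs. They were 447, 0 and 103 in the 21d pigs, 6.73, 0 and 198 in the 28d pigs and 139.7, 38.3 and 0 in the 35d pigs, and 3.3, 6.38 and 6.78 in the 120d pigs and 4.27, 5.03 and 12 in the 180d pigs. Thus 5 libraries of 7d to 35d were listed at 0 beside pigs of the same stage with counts up to 447, and every library of 120d and 180d was at 12 or below. Its coefficient of variation within stages was 105%, against at most 41.1% for the other 99. Its age trend, a slope of -0.75 ± 0.25 (SE; adjusted p = 0.0394) log2 per doubling of age, passed the threshold, but not when any of 9 single libraries was left out (pigs 2 and 3 of 7d, pig 2 of 35d, and each pig of 120d and 180d), when it was -0.75 to -0.69. In the 17 libraries with the highest shares of valid bases it was -0.47 and not called.

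Differences between pigs were modest for the rest. The median coefficient of variation between the 3 pigs of a stage was 18.9% over the 100, of which counting alone would give 12.5%, against 25.4% and 17.2% for the next 100 and 57.5% and 42.8% over the table. It exceeded 30% in 9 members. ELF2, an ETS transcription factor, varied least at 9.35%, near its counting value of 9.87%, followed by SMAD4, the shared mediator of TGF-beta signals, at 9.99% and PICALM exons 2 to 5 at 10.2%. After circRNA_30386, ZFX, a zinc finger factor encoded on chromosome X, varied most, at 41.1%. RBM6, KIAA2026 and DIAPH2 were listed at 0 in 1 library each, RBM6 in pig 1 of 1d beside 59.3 and 79.9 in the others.

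**Figure D3:**
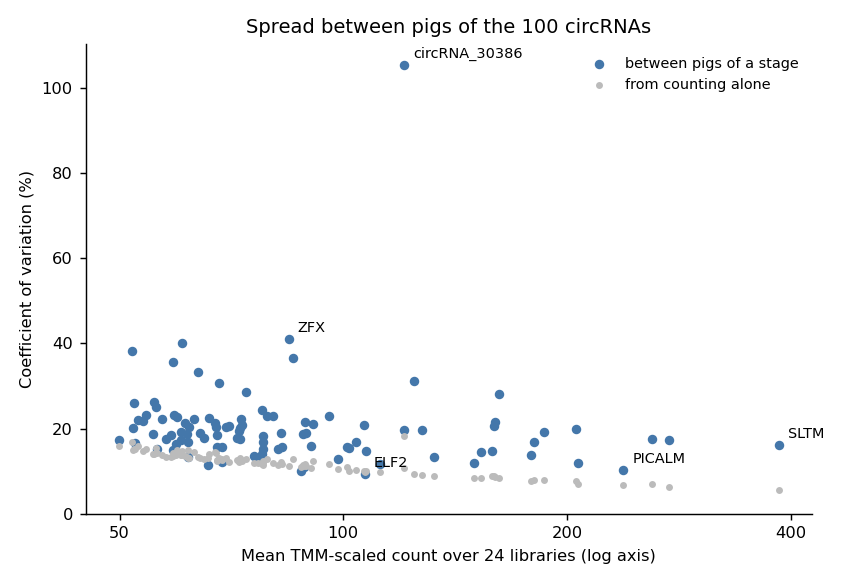
Coefficient of variation within stages (%, blue) and that expected from counting alone (grey) against the mean TMM-scaled count over the 24 libraries, on a log axis, for the 100 circRNAs. Most lie between 9.35% and 30%, and circRNA_30386 stands alone at 105%.

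Over the 8 stages, the highest stage mean of a member was a median of 1.83 times the lowest. It was under 1.5 times in 20 members, under 2 in 62, between 2 and 3 in 29 and over 3 in 9. Under 2-fold lay 53 of the next 100 and 18.2% of the table, whose counts are lower. The smallest span, 1.15-fold, was that of PSME4, an activator of the proteasome, with 81.6, 67.5 and 75.3 in the 1d pigs, 72.5, 79.5 and 94.4 in the 120d pigs and 75.8, 96.3 and 77.2 in the 180d pigs and overlap throughout. UPF2, a factor of nonsense-mediated decay, followed at 1.24-fold, GON4L at 1.29, LOC397451, annotated as the receptor of leukaemia inhibitory factor, at 1.30, WDR75, a protein of ribosome assembly, at 1.32 and STXBP3, which guides vesicle fusion, at 1.34. For each of these 6, all 28 differences between stages had a 95% interval inside 2-fold, the widest bound being 0.64 log2 for PSME4 and 0.87 for STXBP3. Such intervals held for all 28 pairs in 17 of the 100, and for 71.5% of the 2800 pairs over all members.

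With clean reads as the depth the median span was 5.06-fold, so the spans above are relative to the other circRNAs. The largest spans under TMM were those of circRNA_30386, DIAPH2, a formin that had 1 library at 0, at 4.82-fold and circRNA_16050 at 4.04-fold. Highest means fell at 120d or 180d in 50 members and at 1d or 7d in 25, and lowest means at 1d or 7d in 66. The ranking by raw sums favours circRNAs that are high at 120d. These counts have no share over the table beside them and describe the members only.

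Differences among stages were tested in 1 fit over all 3000 circRNAs. Any difference among the 8 stages was called (adjusted p under 0.05) for 41 of the 100, against 8.97% of the table and 34 of the next 100 by rank. A trend with log2 of age was called for 54, against 16.5% of the table and 43 of the next 100. More reads give the test more power, so age effects and power cannot be told apart in these counts. Of the 54, 41 were higher with age (table, 10.7%) and 13 lower (table, 5.77%), with slopes of the rises from 0.065 to 0.27 log2 per doubling of age. Scaled by table totals without TMM, the split was 31 higher and 20 lower, and with clean reads as the depth 97 higher and 0 lower. In the 17 libraries whose valid bases made up 0.96 or more of the total, 22 were called for any stage and 26 for the trend (these are the valid-base libraries below, which leave 1 library each at 35d, 120d and 180d, assumed to vary like the other groups). Neither test called 42 members, of which 16 had all 28 intervals inside 2-fold.

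At 120d against 1d, 17 members passed both an adjusted p under 0.05 and a change of at least 2-fold (table, 6.1%), of which 16 were higher (table, 4.63%) and 1 lower (table, 1.47%). The split was 10 and 2 with DESeq2 size factors 7 and 3 with table totals, and 97 and 0 with clean reads. At 180d against 1d, 23 passed (table, 9.3%), 20 of them higher (table, 5.9%) and 3 lower (table, 3.4%), 13 and 5 with table totals, and 72 and 0 with clean reads. All 23 were free of overlap between the pigs of both stages (table, 9%), as were 16 of the 17 (table, 5.97%). By the adjusted p alone, 38 were called at 120d (table, 6.9%) and 45 at 180d (table, 10.2%). The median log2 fold change of the 100 was 0.48 at 120d and 0.33 at 180d, against 0.26 and 0.20 over the table. Since deeply counted 120d libraries weigh most in the ranking, circRNAs high at 120d were more likely to be among the 100. The 100 chosen with equal weight of stages gave 18 and 24 calls, 16 and 19 of them higher. The valid-base libraries, with 1 library at 180d, gave 13 calls at 180d against 1d.

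**Figure D4:**
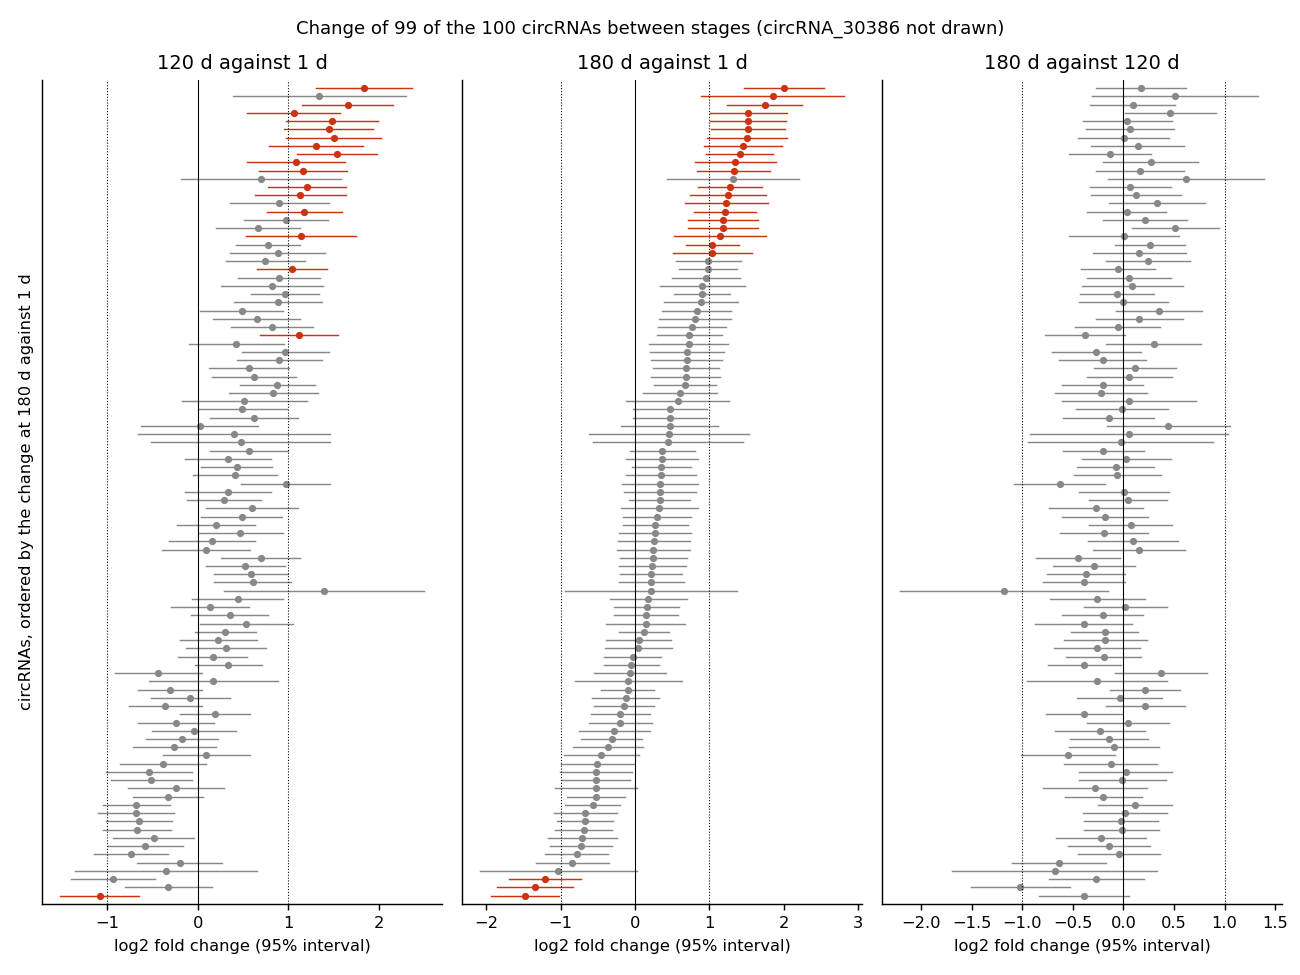
log2 fold change (points) and 95% interval (lines) of 99 of the 100 circRNAs for 3 pairs of stages, in the order of the change at 180d against 1d. Red marks the 17, 23 and 0 that passed an adjusted p under 0.05 and 2-fold, solid lines no change and dotted lines 2-fold. Against 1d most lie to the right of no change, while at 180d against 120d they lie around it. circRNA_30386 is not drawn.

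The rises with age were led by circRNA_16050, the second ring with the TLK1 acceptor. Its counts were 25.9, 29.6 and 30.1 in the 1d pigs, 45.4, 40.1 and 46.3 in the 7d pigs, 99.8, 95.7 and 112 in the 120d pigs and 93.9, 144 and 108 in the 180d pigs. Every 120d and 180d pig lay above every 1d and 7d pig, and the fitted change from 1d to 180d was 4.02-fold (log2 fold change 2.01 ± 0.27 (SE), adjusted p = 1.01e-06, slope 0.27 ± 0.03 (SE; adjusted p = 1.96e-09) log2 per doubling of age). USP3, which removes ubiquitin from histones, rose from 27.9, 31.3 and 27.1 in the 1d pigs to 94.2, 91 and 87.7 in the 120d pigs and 69.4, 119 and 101 in the 180d pigs. The groups did not overlap, with a 3.15-fold rise at 120d (log2 fold change 1.66 ± 0.25 (SE), adjusted p = 1.13e-05), and at 180d its change was 1.23 log2 and not called in the valid-base libraries, which hold 1 library of that age.

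PTBP3, an RNA-binding protein of the polypyrimidine tract family, rose from 17.9, 37.9 and 31.6 in the 1d pigs to 74.7, 80.5 and 96.7 in the 180d pigs (log2 fold change 1.51 ± 0.27 (SE), adjusted p = 5.32e-05). STK17A, a kinase of the death-associated family, rose from 57.7, 56 and 73.8 in the 1d pigs to 181, 184 and 183 in the 120d pigs (log2 fold change 1.54 ± 0.22 (SE), adjusted p = 5.47e-06). SNX6, a sorting nexin of the retromer, rose from 47.8, 47.7 and 42.2 in the 1d pigs to 92.9, 170.3 and 129 in the 180d pigs (log2 fold change 1.52 ± 0.25 (SE), adjusted p = 1.63e-05). None of the 3 overlapped between the stages compared. SMCHD1, which silences the inactive X chromosome and gene clusters, rose 2.88-fold at 180d (log2 fold change 1.53 ± 0.26 (SE), adjusted p = 2.57e-05) and by 1.22 log2, not called, with the 1 valid-base library of that age. FCHSD2, an F-BAR protein of actin and membranes, gave 33.8, 23 and 46.7 in the 1d pigs and 122, 172 and 83.2 in the 180d pigs, a 3.62-fold rise (log2 fold change 1.85 ± 0.46 (SE), adjusted p = 0.0139) that was not called, at 1.55 to 1.84 log2, without pig 1 or 2 of 1d or pig 2 of 180d.

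The falls were fewer. CCT3, a subunit of the chaperonin that folds actin and tubulin, gave 117, 82.3 and 124 in the 1d pigs and 106, 96.6 and 109 in the 7d pigs, and 47.1, 49.2 and 49.5 in the 28d pigs and 37.4, 48.9 and 29.2 in the 180d pigs. The 180d pigs lay below every 1d and 7d pig (log2 fold change -1.48 ± 0.23 (SE), adjusted p = 1.12e-05, slope -0.20 ± 0.029 (SE; adjusted p = 8.41e-07)), and at 120d the change was -1.09 log2, or -0.95 and under 2-fold without pig 3 of 1d. AP2A1, a subunit of the AP-2 clathrin adaptor, gave 108, 96.6 and 104 in the 7d pigs and 29.9, 43.1 and 34.5 in the 180d pigs, and fell against 1d as well (log2 fold change -1.21 ± 0.24 (SE), adjusted p = 0.000394). CDK13, a kinase of RNA polymerase II, gave 104, 115 and 94.9 in the 1d pigs and 51.9, 91.3 and 29.2 in the 28d pigs, and 107, 64.4 and 78.5 in the 120d pigs and 42.7, 38.8 and 42 in the 180d pigs. The 180d pigs lay below those of 1d and 120d (log2 fold change -1.34 ± 0.26 (SE), adjusted p = 0.000182), while 1 pig of 28d lay below all of them. With 1 library at 180d, in the valid-base libraries, the change was -1.33 log2 and not called.

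FANCL and S100PBP, which binds the calcium protein S100P, followed, their slopes being -0.11 and -0.10 on the same scale, neither called in the valid-base libraries. With clean reads as the depth the slopes of these falls turned positive, to 0.12 for FANCL, S100PBP and CDK13, 0.038 for AP2A1 and 0.029 for CCT3, so the falls are relative to the other circRNAs.

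**Figure D5:**
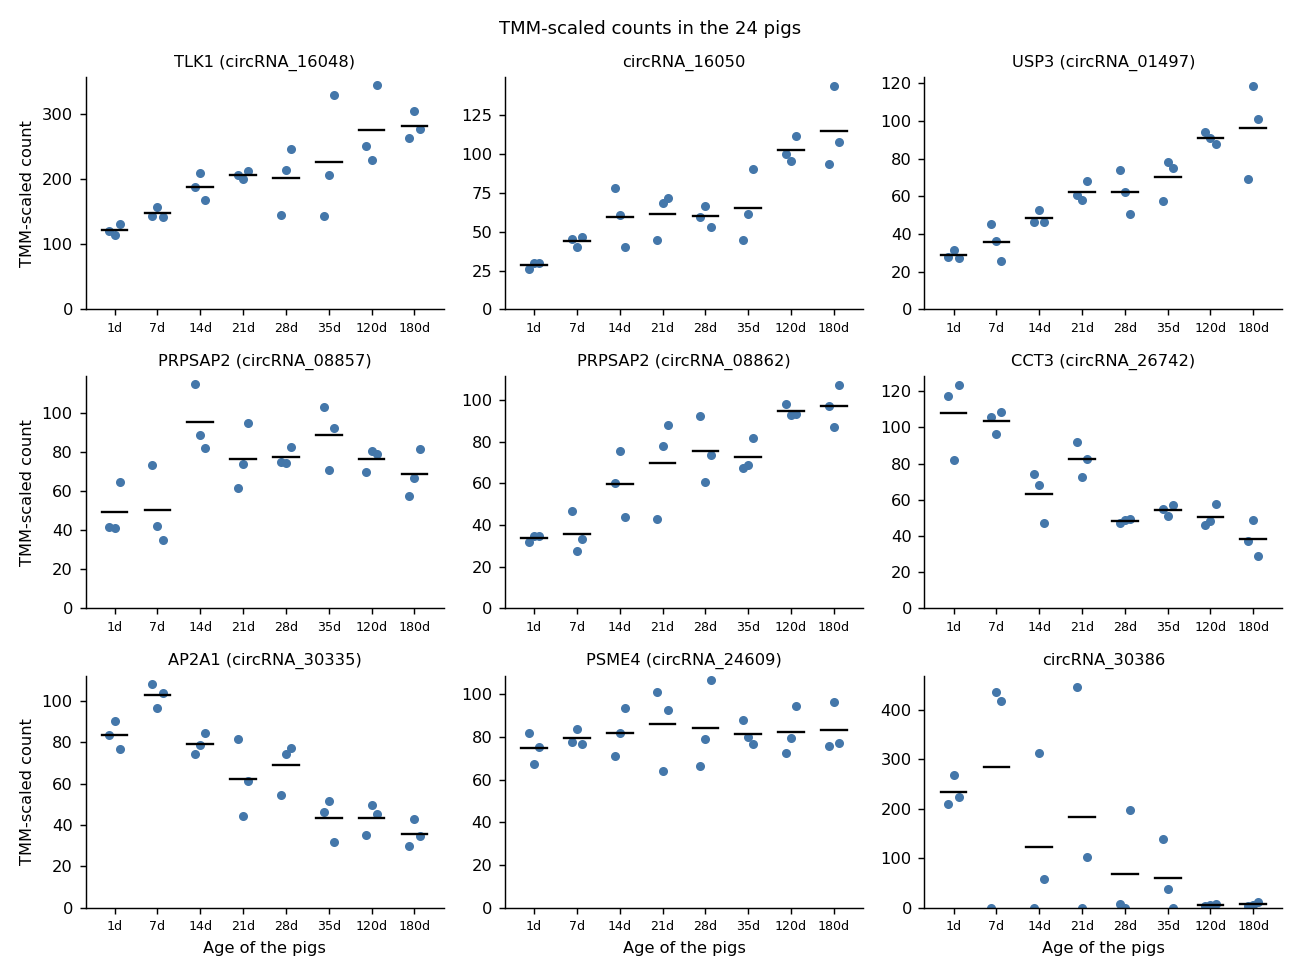
TMM-scaled counts of 9 members in the 24 pigs by age. Points are pigs and bars the means of 3 pigs. The TLK1 ring, circRNA_16050 with the TLK1 acceptor, and USP3 lie higher at 120d and 180d than at 1d. The means of both PRPSAP2 rings do so too, while CCT3 and AP2A1 lie lower. PSME4 runs from 64.2 to 107, and circRNA_30386 spans 0 to 447 among pigs of 7d to 35d.

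Between 120d and 180d no member passed the threshold, and none of the 3000 did (table, 0%). An unadjusted p under 0.05 was reached by 10 members and 145 of the 3000, where a share of 0.05 is expected without any difference. DESeq2 also called 0. The lowest adjusted p of a member was 0.10, for CDK13. The 95% interval lay inside 2-fold for 89 of the 100, against 43 at 120d and 43 at 180d versus 1d. The 1d libraries have the lowest totals, which widens the intervals against 1d. These counts therefore do not compare the sizes of the changes alone.

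Rings that share a host gene or an acceptor did not always move together. The TLK1 ring of exons 2 to 4 was 4.27 ± 0.398 times as abundant as circRNA_16050 at 1d (SD, n = 3 pigs) and 2.49 ± 0.347 times at 180d. For PRPSAP2, a protein that binds phosphoribosyl pyrophosphate synthetase, the ring of exons 2 to 7 was 1.46 ± 0.362 times that of exons 2 to 4 at 1d and 0.708 ± 0.0994 times at 180d, and the shorter one alone was called at 180d. For PICALM the ratio of exons 2 to 5 to exons 2 to 6 was 2.34 ± 0.657 and 3.65 ± 0.419. In each of these 3 pairs the pigs of 1d and 180d did not overlap in the ratio. The PICALM pair of exons 2 to 5 and exons 2 to 4, in contrast, kept ratios of 1.93 ± 0.531 and 2.38 ± 0.458 with overlap. The SLTM rings of exons 4 to 6 and 20 to 21 stood at 4.86 ± 0.716 and 7.98 ± 1.03, and the ANTXR2 rings of exons 4 to 7 and 4 to 10 at 1.31 ± 0.124 and 2.003 ± 0.384, each without overlap. For MLLT10, a chromatin protein, exons 8 to 10 against 8 to 11 gave 1.03 ± 0.0759 and 1.48 ± 0.0844, also without overlap, while the rings of MATR3, TESK2 and PIAS1 overlapped. These differences of ratios were not tested.

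Of 12 lists of host genes, 18 members fell on any. Among chromatin and transcription regulators, PHF21A and TLK1 were called higher in the age trend, and NCOR1 and SETD3 were not called. The 5 of widely conserved circRNA hosts (PICALM with 3, NCOR1 and SETD3) gave no rise and 1 fall, with a median slope of -0.020 against 0.029 over the table. Both ubiquitin enzymes, UBE3A and USP3, were called higher, where 7 of the 88 circRNAs on that list were called higher and 6 lower over the table, of 2 small GTPase regulators ROCK1 was and RALGAPA1 was not, and UPF2 and RBM6 of the RNA processing list were not called. Counts this small describe the members only.

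The 6 lists of cell type genes held 2 of the 100 circRNAs and 34 of the 3000 (1.13%). The T and NK cell, erythroid, stromal and megakaryocyte lists had no member. The B cell list had FCHSD2, the macrophage list NR1H3, a sterol-sensing nuclear receptor with 149, 166 and 225 in the 1d pigs and 141, 83.4 and 118 in the 180d pigs and a slope of -0.09 ± 0.025 (SE; adjusted p = 0.00873), and the cell cycle list ATAD2, which was not called. Over the whole table, 4 of 49 T and NK cell, 6 of 40 B and plasma cell, 4 of 40 erythroid, 24 of 71 cell cycle and 0 of 20 megakaryocyte genes had any circRNA, so most defining markers cannot be read from it. The summed share of reads of the erythroid hosts was 0.366% to 0.535% in the 1d pigs and 0.165% to 0.171% in the 180d pigs, that of the T and NK cell hosts 0.0716% to 0.0983% and 0.172% to 0.185%, that of the cell cycle hosts 1.35% to 1.63% and 0.402% to 0.532%, and that of the B cell hosts 0.186% to 0.312% and 0.457% to 0.762%. The macrophage hosts, at 0.516% to 0.749% and 0.491% to 0.581%, and the stromal hosts, at 0.0492% to 0.0908% and 0.0635% to 0.0795%, overlapped between these ages. The T and NK cell list had only 4 circRNAs in the table, as did the stromal list. The macrophage list had 5 and the B cell list 10, so single rings weigh heavily in these sums. NR1H3 alone gave 75, 101 and 149 reads in the 1d pigs, whose library totals were 16273 to 23752. FCHSD2 gave 114, 240 and 111 reads in the 180d pigs, with totals of 37023 to 57890. The part that these shifts in share have in the changes of the 100 was not tested.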

How the data were processed

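Back-splice reads of 3000 circRNAs were counted in spleens of 24 Meishan pigs, 3 at each of 8 ages. The deposited counts are raw. The authors trimmed the reads, mapped them with BWA (Sscrofa11.1) and took circRNAs from CIRI2 at GT-AG sites, and FastQC, cutadapt and TopHat2 stand in the submitters' processing notes. The smallest count above 0 is 2, and the table is part of each library, so its totals are not sequencing depth. The labels and the study's methods name different extraction and library kits, of which only the latter include RNase R, and which was used was not settled.

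The members and lists were chosen with earlier results of these data known. Counts were scaled by TMM and tested in 1 fit over all 3000 circRNAs by the quasi-likelihood test of edgeR 4.0.16 (R 4.3.3), two-sided, with Benjamini-Hochberg adjustment. An adjusted p under 0.05 was called, for pairs of stages with at least 2-fold. DESeq2 1.42.0, other scalings, filters, a replicate block and left-out libraries were alternatives. Exons, junctions and copies came from RefSeq (blastn 2.17.0). The text names the 12 highest sums, the steepest called trends, the largest called changes without overlap between pigs, the least and most variable members, those without a host and those with copies. Other hosts were named from the lists or for isoform pairs. Pigs with the same number share only that number. The labels name no batches, and p-values measure only the spread between these pigs. The test was also run on counts simulated from the model it assumes, which cannot show how it behaves where counts depart from that model. The values of some members are not reported here.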

Additional observations from a re-analysis of the deposited data

How the results depend on the processing

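With clean reads as the depth, 96 of the 100 were called for any stage, 97 for the age trend, 97 at 120d and 72 at 180d against 1d and 6 (all lower) at 180d against 120d, and the median span of the stage means was 5.06-fold. The slopes then reversed to 0.12 for FANCL, 0.12 for S100PBP, 0.12 for CDK13, 0.029 for CCT3 and 0.038 for AP2A1, and the CCT3 change at 120d against 1d to 0.68. That scaling moves all circRNAs of a library together. In the 17 libraries whose valid bases made up 0.96 or more, 22 were called for any stage, 26 for the trend and 13 at 180d against 1d, with 1 library left at 35d, 120d and 180d each. Table totals gave 10 calls at 120d against 1d, and without a fold minimum there were 38 at 120d (6.9% of the table) and 45 at 180d (10.2%). Leaving out 1 library gave 38 to 44 calls for any stage, 46 to 55 for the trend, 14 to 24 at 120d and 21 to 32 at 180d against 1d, and 0 between 120d and 180d. With the replicate block the counts were 44, 53, 17, 23 and 0, and of the named results only the circRNA_30386 trend was lost. The numbers do not pair the pigs. The mean correlation of deviations was 0.0063 for the same number and -0.0031 for others, and 9 of 24 libraries were closest to their own number.

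Leaving the 2 excluded circRNAs out of the denominator gave shares of 25.1% (21d), 24.6% (28d), 25.1% (35d) and 26.2% (180d), and taking the first 100 before removing them gave 24.3% (21d), 23.7% (28d) and 25.1% (180d). Ranking by TMM-scaled means or by stage shares gave 25.02% for 180d. The alternative with the 100 chosen by stage share was added after seeing the data. Of 580 alternative values for 26 named tests, 549 kept direction and call, 25 kept the direction and lost the call, and 6 reversed. Counts at 1d are the lowest, which limits what 1d comparisons can show.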
